A study of Mus musculus with 3 samples.

Results

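The 2 hemispheres of animals with middle cerebral artery occlusion (MCAO, blockage of a large brain artery, used in rodents as a stroke model) were compared in mouse ribosome-bound RNA. Of the 3 libraries of the study, 2 entered the comparison, the left hemisphere of the MCAO animals (called the left library) and the right hemisphere of the MCAO animals (the opposite library). The third, the right hemisphere of animals without MCAO (the control library), is given beside them. The occlusion lasted 1 h and tissue was taken after 3 days from the middle section of each hemisphere. The labels of the 3 libraries differ in occlusion and side, and they name no strain, age, sex, allele or driver line. Each library was 1 pool of 3 animals with 2 technical replicates, and RNA from repeated pull-downs was combined before sequencing. RiboTag was the method named for all 3 groups. In it, a tagged ribosomal protein made in chosen cells is precipitated with the transcripts on those ribosomes, and the series title speaks of astrocytes. Of 16610 genes in the table, 14906 had a mean of at least 20 normalised read counts over the 3 libraries. Of these, 491 were set apart because the opposite library was at least 4 times both others, which left 14415 genes for the comparison of sides.

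After a stroke, astrocytes around the damaged tissue enlarge, make more intermediate filament and matrix proteins and are called reactive. Microglia, the resident phagocytes of the brain, and macrophages entering from blood take up debris and release chemokines and complement. The middle cerebral artery supplies much of the striatum and lateral cortex, and medium spiny neurons, the main neurons of the striatum, are known to be sensitive to its occlusion.

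With 1 library per side, no difference has a replicate check and no test was possible. A gene is called higher or lower here where log2(value + 5) differed by at least 1, that is 2-fold, and this scale understates differences of low genes. Folds in the text are ratios of the normalised read counts, and each fold has a 95% interval (Clopper-Pearson, exact) computed on recovered reads, which covers counting error only. Left and right cannot be told apart from occlusion, since no left hemisphere without MCAO was analysed. In such bulk RNA, fewer cells of a type and less RNA per cell cannot be told apart either. The left, opposite and control libraries held 25930258, 33886604 and 31833456 reads.

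The 6 astrocyte markers (Gfap, Aqp4, Aldh1l1, Slc1a2, Slc1a3 and Gja1) summed to 274106 normalised read counts in the left library, 225074 in the opposite library and 254917 in the control library. Neuron markers summed to 79082, 88639 and 98639 in the same order, so neuronal transcripts were present in all 3 pull-downs. The 4 microglia markers summed to 10032, 4367 and 4628. The 4 markers of oligodendrocytes, the myelin-forming cells, summed to 129474, 81440 and 99978. Of 3 neutrophil markers, S100a9 alone was in the table, at 16.5, 14.2 and 5.81, and none of 3 T cell markers was. Markers of male germ cells (Prm1, Prm2, Tnp1 and Tnp2) summed to 14.1, 4012 and 12.6, so the opposite library stood apart from the other two in these. The 491 genes set apart held 0.322% of the reads of the opposite library and 0.0133% of those of the left library, with medians of 131 and 2.35 normalised read counts against 2.91 in the control library. The highest were the sperm protamine gene Prm2 at 1647 in the opposite library, Fhl4 at 1638, the sperm lactate dehydrogenase gene Ldhc at 1607, the sperm tail gene Akap4 at 1351, Phf7 at 1217 and Atp8b3 at 1138.

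Between the sides of the MCAO animals, 474 genes were higher in the left library (3.29% of the 14415 compared) and 249 were lower (1.73%). These shares are the background for the counts of list members given below. Most genes differed little, with 12442 (86.3%) within 1.4-fold, here a log2(value + 5) difference under 0.496 in every such count, and a median log2 difference of 0.01. The central 95% of genes lay between -0.83 and 1.20, and the extremes were -2.92 and 6.68. At 4-fold, 136 genes were higher (0.943%) and 20 lower (0.139%), and at 1.5-fold 922 (6.4%) and 658 (4.56%). The downward extreme and the counts of lower genes exclude the 491 genes set apart, which were removed for being high in the opposite library. Among those, Prm2 had a difference of -7.81 and Akap4 of -7.78, both larger in size than the upward extreme, so no comparison of the sizes of higher and lower differences was made. Genes just past 2-fold on this scale included Fam72a and Csf2ra, and just under it Icam1, Kifc1 and Aldh1l2. At the minimum mean of 20, Gbx1, Msln and Slc43a3 were just inside and Agtr1a, Epha2 and Fam71a just outside. Tdrd1, Iqub and Acrbp were the last genes set apart, and Slc2a5, Ggn and 4430402I18Rik the first that were kept.

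**Figure D1:**
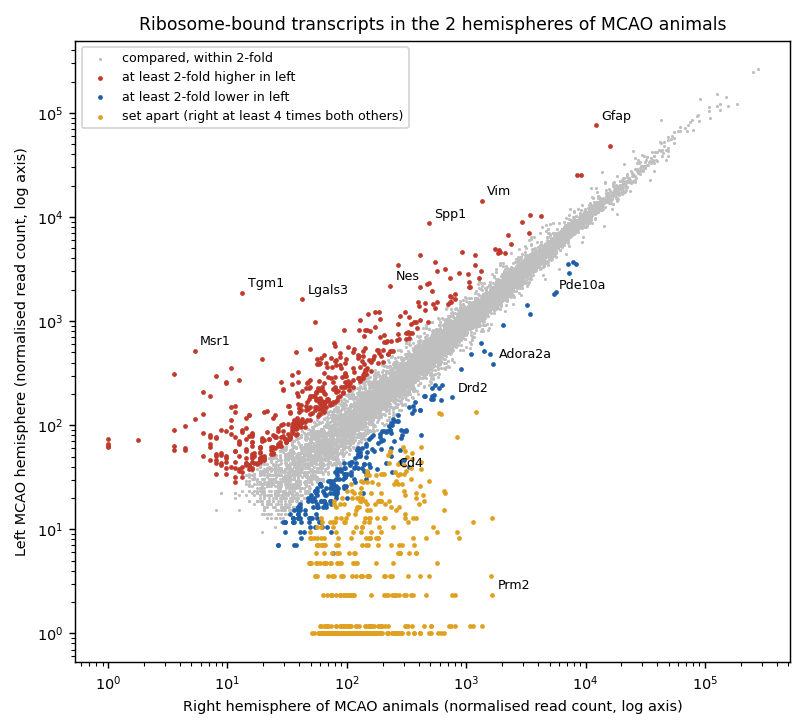
Normalised read count of each gene past the minimum mean in the right (x axis) and left (y axis) hemisphere of the MCAO animals, on log axes, with 1 pooled library per side and no error bars. Red points are the 474 genes at least 2-fold higher in the left library, blue points the 249 lower, grey points genes within 2-fold, and yellow points the 491 genes set apart, which lie low in the left library.

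The higher and lower genes related differently to the control library. For 312 of the 474 higher genes the opposite library was within 1.4-fold of the control, and for 103 it was at least 1.4-fold above it. For 174 of the 249 lower genes (69.9%) the opposite library was at least 1.4-fold above the control, and for 50.2% at least 2-fold. For 71 lower genes it was within 1.4-fold of the control and for 4 below it. Over all genes compared, the opposite library was higher than the control in 280 (1.94%) and lower in 54 (0.375%). Against the control alone, the left library was higher in 601 genes (4.17%) and lower in 170 (1.18%). Counted against both right hemispheres, which share the left library, 384 genes were higher (2.66%) and 60 lower (0.416%). The male germ cell markers were high in the same opposite library, and their part in the lower genes was not tested.

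The 20 genes with the largest difference upward were led by Tgm1, a transglutaminase that cross-links proteins, at 141-fold (84.9 to 252). Next came the scavenger receptor gene Msr1 at 97.4-fold (44.4 to 267) and the interferon-inducible gene Ifi202b at 87.5-fold (33.8 to 324). Ch25h, encoding cholesterol 25-hydroxylase, which makes an oxysterol (chromosome 19, 34473783 to 34475148), had 207 normalised read counts in the left library, 6.21 in the opposite and 13.6 in the control. It was 33.3-fold higher than in the opposite library (15.8 to 84.1). C3ar1, the receptor gene for complement fragment C3a (chromosome 6, 122847140 to 122856157), had 505, 37.3 and 33.9 and was 13.5-fold higher (9.85 to 19.1). Both right hemispheres were low in each of these genes, and the left library alone was high. Col5a3, a collagen V chain gene (chromosome 9, 20770050 to 20815117), had 128, 6.21 and 6.78, so that its 20.6-fold higher value (9.69 to 52.6) rests on 7 reads in the opposite library. Lilr4b and the chemokine gene Ccl4 were listed at 1, the lowest value in the table, in both right hemispheres, and had 72.9 and 65.9 in the left library. The remaining genes of the 20 were Lgals3, Adam8, Lilrb4a, Clcf1, Spp1, Timp1, Cd72, Lcn2, Cxcl13, Ctse, St14 and Tk1, between 12.8-fold and 38.2-fold. Lilrb4a and Lilr4b are near copies that can share reads, so their single values are uncertain.

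In most of the 12 genes with the largest difference downward, the opposite library lay above the control as well as above the left library. Slc2a5, encoding the fructose transporter GLUT5 (chromosome 4, 150119344 to 150144168), had 39.99 normalised read counts in the left library, 333 in the opposite and 83.3 in the control, and was 8.32-fold lower on the left side (5.85 to 12.2). Slc16a7, a monocarboxylate transporter gene, had 79.99, 419 and 133, and was 5.24-fold lower (4.05 to 6.86). Cast, encoding the calpain inhibitor calpastatin, had 57.6, 281 and 91.0, and was 4.88-fold lower (3.60 to 6.74). In these 3 genes the opposite library stood highest and the left library was nearer to the control. Amhr2, the receptor gene of anti-Müllerian hormone, had 5.88, 77.2 and 32.9, and Cep85l 44.7, 279 and 88.1. The others of this kind were Ccdc116, Erich6, Bbof1, Ak8 and Stk33. In all of these the opposite library was under 4 times the control (3.99 times in Slc2a5), so they were not set apart. With a set-apart limit of 2 times, 113 genes were lower in place of 249. The part of the germ cell transcripts in these genes was not tested. Cd4, the co-receptor gene of helper T cells, had 35.3, 241 and 297, and Sh3rf2 had 45.9, 303 and 227, so both right hemispheres were high in these 2 genes. Cd4 was 6.84-fold lower in the left library than in the opposite one (4.68 to 10.3).

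**Figure D2:**
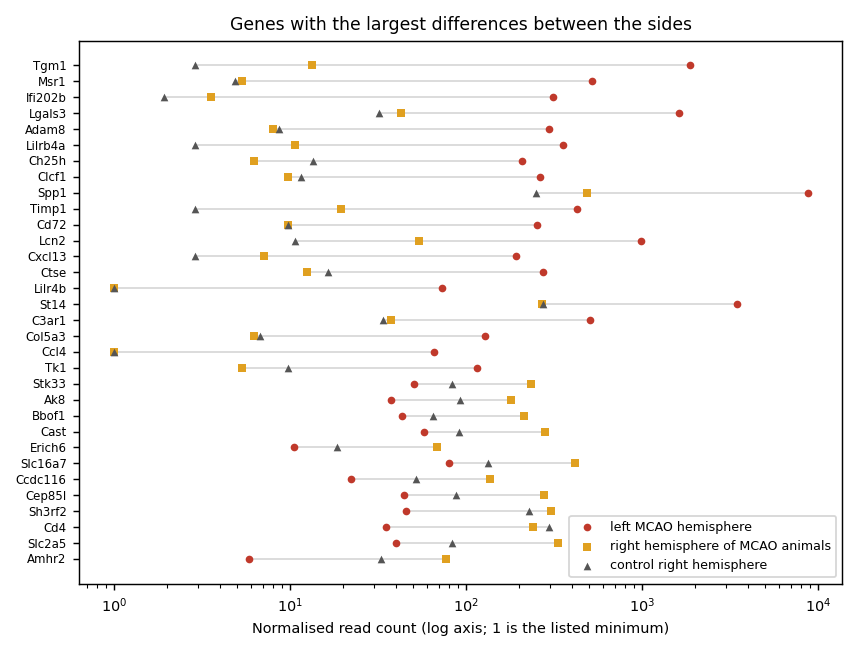
Normalised read counts (log axis) in the left MCAO hemisphere (circles), the right hemisphere of MCAO animals (squares) and the control right hemisphere (triangles), with 1 library each, for the 20 genes highest and the 12 lowest in the left against the opposite library. In the upper genes both right hemispheres are low, as in Msr1 with 5.32 and 4.84, and in most lower genes the square is highest, as in Slc2a5 with 333.

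Reactive astrocyte genes were higher in the left library while astrocyte identity genes were not. Of 13 pan-reactive genes 12 were compared, with Steap4 under the minimum mean, and 11 were higher and none lower, with a median log2 difference of 2.65 between the sides, beside 0.01 over all genes. Against the control the median was 3.02 in the left library and 0.46 in the opposite library. Vim, encoding the intermediate filament protein vimentin, had 14359, 1351 and 707 normalised read counts in the left, opposite and control libraries, a 10.6-fold difference between the sides (10.1 to 11.2). Cd44, the hyaluronan receptor gene, had 1016, 130 and 130, a 7.85-fold difference (6.58 to 9.41). In Vim the opposite library lay between the other two, and in Cd44 it was level with the control. Timp1, an inhibitor of matrix metalloproteases, had 428, 19.5 and 2.91. Cp, encoding the copper oxidase ceruloplasmin, was the one compared member that was not higher, at 294, 311 and 314.

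The A2 list holds reactive astrocyte genes first listed after ischaemia, and the A1 list those after an inflammatory stimulus. Among 11 compared A2 genes 9 were higher (median 1.78), and among 10 A1 genes 4 were (median 0.86). Besides Tgm1 and Clcf1, the largest A2 differences were those of Emp1, a membrane protein gene, with 579, 79.9 and 73.6 normalised read counts (7.25-fold, 5.78 to 9.18), and of Cd14 and Tm4sf1. The largest A1 differences were 3.98-fold for the proteoglycan gene Srgn (2.99 to 5.35), 2.96-fold for the immunoproteasome gene Psmb8 (2.36 to 3.73), 2.28-fold for Gbp2 and 2.17-fold for Ggta1. Microglia markers were higher in the left library as well, and the cells that made these transcripts were not identified.

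None of 26 astrocyte identity genes was higher or lower, and their median was 0.04. The largest differences in each direction were a 1.47-fold higher value of Aldh1l1, a folate enzyme gene, and a log2 difference of -0.50 for the glypican gene Gpc5. Slc1a3, the glutamate transporter gene GLAST, had 35442, 47038 and 51005 (1.33-fold lower, 1.31 to 1.35). Glul, encoding glutamine synthetase, had 107443, 135056 and 113109 (1.26-fold lower, 1.25 to 1.27), with the left library nearer to the control. Gja1, encoding the gap junction protein connexin 43, had 25650, 25066 and 26303. The 23 astrocyte transport and endfoot genes had a median of -0.04 and the 14 patterning genes -0.14, with none called in either list. Rpl22, whose protein carries the tag in RiboTag mice, had 3205, 2655 and 2466.

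Genes of the cell surface, cytoskeleton and matrix contained members with large differences among others that hardly differed. Of 25 cytoskeleton genes 7 were higher (median 0.39), and of 16 annexins and S100 genes 6 were higher (median 0.84), with none lower in either list. Nes, encoding the intermediate filament protein nestin, had 2182, 232 and 163 normalised read counts and was 9.42-fold higher (8.27 to 10.8). S100a11, a calcium-binding protein gene, had 538, 49.7 and 28.1 and was 10.8-fold higher (8.18 to 14.5). Anxa2, a membrane-binding annexin gene, had 1213, 307 and 200 and was 3.95-fold higher (3.49 to 4.47). In these 3 genes the control library was lowest and the opposite library much nearer to it than to the left. Anxa1 had 21.2, 36.4 and 22.3, the most negative difference of its list.

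Of 32 matrix and integrin genes 7 were higher (median 0.36), and of 23 matrix proteases and inhibitors 9 were (median 0.51). Fn1, encoding fibronectin, had 1217, 171 and 115 normalised read counts (7.11-fold, 6.09 to 8.33), and Tgfbi, encoding a matrix protein that binds collagen, had 1226, 186 and 205 (6.58-fold, 5.67 to 7.67). Cspg4, the NG2 proteoglycan gene, had 1276, 454 and 554 (2.81-fold, 2.53 to 3.13). Each of the 3 was high in the left library alone. The most negative matrix difference was that of Sparcl1, encoding the astrocyte protein hevin, with 122199, 187040 and 169490 (1.53-fold lower, 1.52 to 1.54). Among the proteases, Mmp19 had 261, 28.4 and 34.9 (9.20-fold, 6.33 to 13.8), beside Adam8, Ctse, St14 and Timp1 named above.

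Genes of phagocytes and lysosomes were higher in part. Of 21 lesion-associated phagocyte genes 12 were higher and none lower, with a median of 1.58, and of 27 lysosome and autophagy genes 9 were higher with a median of 0.68. Lgals3, encoding galectin-3, had 1628, 42.6 and 32.0 normalised read counts (38.2-fold, 28.7 to 52.1). Spp1, encoding osteopontin, had 8736, 487 and 251 (17.9-fold, 16.4 to 19.6). Cd68, a lysosomal protein gene of phagocytes, had 818, 147 and 92.0 (5.55-fold, 4.68 to 6.61). The order left, opposite, control held in these 3 genes, with the left library far above the other two. Among the abundant lysosomal proteases, Ctsd, encoding cathepsin D, had 48035, 16040 and 15654 and was 2.99-fold higher (2.94 to 3.05).

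Of 14 homeostatic microglia genes 6 were higher and 1 was lower, with a median of 0.73. Fcrls, an Fc receptor-like gene of microglia, had 433, 98.5 and 80.4 (4.40-fold, 3.55 to 5.48), and Cx3cr1, the fractalkine receptor gene, had 3464, 1184 and 1591 (2.93-fold, 2.74 to 3.12). Tmem119, a microglial surface protein gene, had 587, 403 and 475, and P2ry12, a purine receptor gene, had 418, 382 and 405, a ratio of 1.09 (0.946 to 1.26). Members of this list thus differed from each other, and the interval of P2ry12 included 1. The lower member was Slc2a5, whose values are given above, with the opposite library far above the control. It was the first gene kept under the set-apart limit, and the part of the germ cell transcripts in it was not tested. Of 16 neutrophil and lymphocyte genes 3 were compared, and of these Ptprc, the leukocyte phosphatase gene CD45, had 260, 76.3 and 32.9 and Csf3r, a growth factor receptor gene of neutrophils, had 314, 96.7 and 81.4, while Cd4 was lower.

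Complement, chemokine and innate receptor genes were higher in part. Over all genes compared, 3.29% were higher and the median was 0.01. Of 15 complement genes 7 were higher with a median of 0.92. The C1q subunit genes C1qa, C1qb and C1qc lie next to each other on chromosome 4 and differed by 4.75-fold (4.38 to 5.16), 4.73-fold (4.30 to 5.21) and 4.75-fold (4.31 to 5.24), so these 3 subunits could not be told apart in fold. C3, the central complement component, had 74.1, 32.8 and 49.4 normalised read counts (2.26-fold, 1.48 to 3.49). Of 15 chemokines and cytokines 7 were higher with a median of 0.97, and Cxcl10, a chemokine gene induced by interferon, had 95.3, 10.6 and 5.81 (8.95-fold). Ccl2, the monocyte chemokine gene, had 62.3 in the left library, was listed at 1 in the opposite library and had 1.94 in the control. Of 20 Toll-like receptor and NF-kB genes 6 were higher with a median of 0.76, and all 20 lay above 0. Tnfrsf12a, the receptor gene of the cytokine TWEAK, had 415, 79.0 and 73.6 (5.26-fold, 4.16 to 6.71), and Tlr2, a receptor gene for bacterial lipoproteins, had 399, 95.8 and 111 (4.16-fold, 3.34 to 5.22). Of 19 antigen presentation genes 3 were higher with a median of 0.67, and all 19 lay above 0.

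In the 17 genes of interleukin 6 family signalling, 5 were higher and the median was 0.20, so the list was split. Bcl3, a cofactor of NF-kB, had 152, 11.5 and 5.81 normalised read counts (13.2-fold, 7.43 to 25.4), and the transcription factor gene Cebpd had 441, 73.6 and 111 (5.99-fold, 4.71 to 7.69). Osmr, the oncostatin M receptor gene, had 272, 48.8 and 34.9, and Socs3, a feedback inhibitor of the pathway, had 422, 81.6 and 77.5. Cebpb, a related transcription factor gene, had 147, 62.1 and 103, with the opposite library below the control. Stat3, the transcription factor of this pathway, had 3382, 2140 and 1646, a smaller difference of 1.58-fold (1.5 to 1.67).

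**Figure D3:**
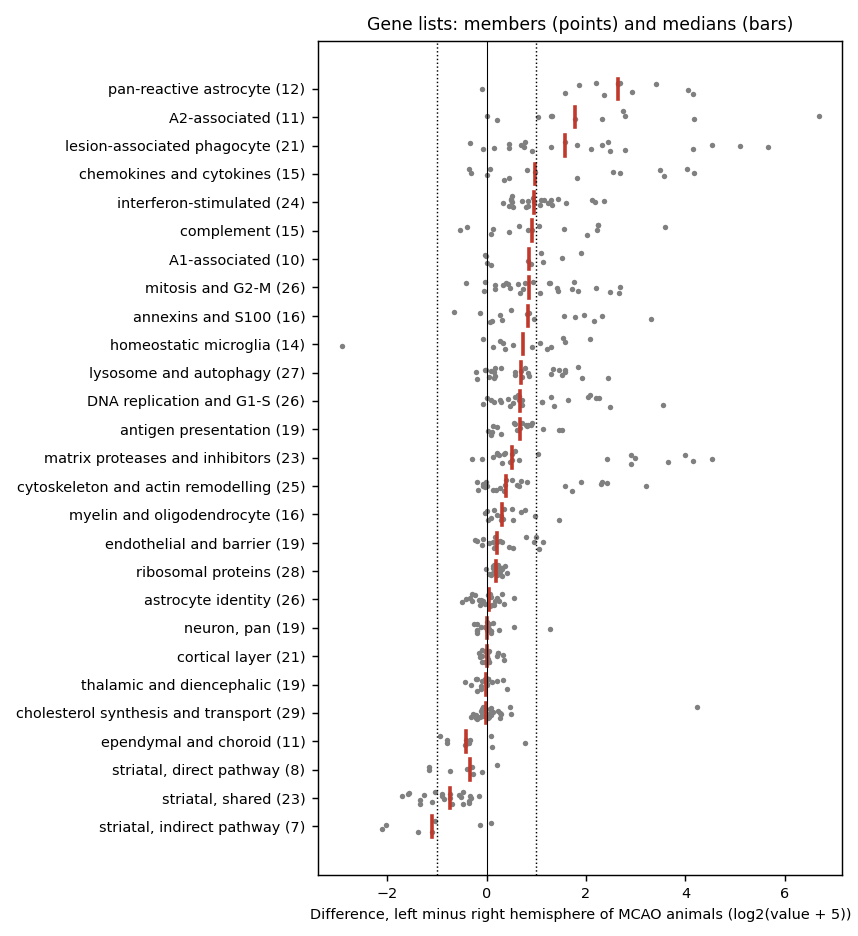
Difference between the sides of MCAO animals on the log2(value + 5) scale (x axis, left minus right) for the compared members (points, jittered vertically) and the median (red bar) of 27 gene lists, with the number of members in brackets and dotted lines at 2-fold. The pan-reactive median lies at 2.65, the astrocyte identity median at 0.04, and the 23 shared striatal genes all lie below 0.

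Interferon-stimulated genes are switched on by interferon through the factor ISGF3. Of 24 compared, 11 were higher, beside 3.29% of all genes, and none was lower. All 24 lay above 0, with a median of 0.95, beside 0.01 over all genes. The medians against the control were 1.07 in the left library and 0.15 in the opposite one. Gbp3, a guanylate-binding protein gene, had 539, 115 and 120 normalised read counts (4.67-fold, 3.84 to 5.72), and Usp18, a protease gene that dampens interferon signalling, had 89.4, 13.3 and 12.6 (6.72-fold, 3.83 to 12.6). Ifi44 had 124.7, 24.8 and 13.6, and Ifit1, which binds viral RNA, had 168, 58.6 and 39.7 (2.87-fold, 2.13 to 3.91). The left library was highest in each.

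Promoter stretches from RefSeq (GRCm38.p6) show where the core of the interferon response element lies in 3 of these higher genes. The motif searched was GAAA, any pair of bases and again GAAA, on both strands, and overlapping matches were joined. It was present in 3.44% of all 32851 promoter windows of 300 bases and in 13 of 24 windows of the compared members. Those 24 windows covered 20 of the 24 compared genes. The sequences are written 5′ to 3′ in the direction of the gene, upstream of its annotated span, with matches in capitals. They are from chr19:34640750-34640829 (plus strand), chr4:156200852-156200931 (minus strand) and chr3:142496734-142496813 (plus strand). Isg15 was chosen after its values were seen.
Ifit1: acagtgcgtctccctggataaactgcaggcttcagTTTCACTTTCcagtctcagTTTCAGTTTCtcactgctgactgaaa
Isg15: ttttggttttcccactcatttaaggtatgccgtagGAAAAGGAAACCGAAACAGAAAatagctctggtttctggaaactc
Gbp5: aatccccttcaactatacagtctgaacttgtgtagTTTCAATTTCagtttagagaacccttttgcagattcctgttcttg
Ifit1 showed 2 matches, Isg15 a run of 3 overlapping matches and Gbp5 1 match. A match describes these letters and shows no bound factor. Isg15 had 107, 42.6 and 9.69 normalised read counts in the left, opposite and control libraries, and Gbp5 had 71.8, 20.4 and 19.4.

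Part of the replication and mitosis genes passed 2-fold upward in the left library, and none passed it downward. Of 26 replication and G1-S genes 11 were higher and the median was 0.68. Of 26 mitosis and G2-M genes 12 were higher and the median was 0.86. In the opposite library the median difference from the control was 0.12 for the replication list and 0.88 for the mitosis list, and in the left library 1.04 and 2.15. Tk1, encoding the thymidine kinase of dividing cells (chromosome 11, 117815519 to 117826087), had 115, 5.32 and 9.69 normalised read counts and was 21.7-fold higher than on the opposite side (9.60 to 60.4). Rrm2, a subunit gene of ribonucleotide reductase, had 399.9, 67.4 and 52.3 (5.93-fold, 4.61 to 7.71). Mcm6, a subunit gene of the replicative helicase, had 265, 58.6 and 49.4 (4.52-fold, 3.42 to 6.04). For these 3 replication genes both right hemispheres were low and the left library was high.

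The mitosis genes differed among themselves in where the opposite library lay. Mki67, a marker of dividing cells, had 395, 58.6 and 33.9 normalised read counts (6.75-fold, 5.17 to 8.93), and Cdk1, the kinase that drives entry into mitosis, had 251, 34.6 and 22.3 (7.24-fold, 5.13 to 10.5). Aurkb, a kinase gene of chromosome segregation, had 82.3, 10.6 and 9.69 (7.73-fold, 4.16 to 15.7). Other members were graded across the libraries, such as the topoisomerase gene Top2a at 461, 137 and 36.8 and Prc1 at 189, 87.8 and 44.6. Anln, encoding the actin-binding protein anillin, was nearly level at 1119, 999 and 850. Cenpf, a kinetochore gene, had 167, 148 and 14.5, a ratio of 1.13 between the sides (0.895 to 1.42). Bub1, a spindle checkpoint kinase gene, had 47.1, 63.9 and 1.94, and the cyclin gene Ccnb2 had 63.5, 65.7 and 7.75. Both MCAO libraries were thus high in these last 3 genes and the control alone was low. In Ncapg, Kif15, Knstrn, Cdca3 and Espl1 both MCAO libraries likewise lay above the control. Dividing male germ cells also express mitosis genes, and germ cell markers were high in the opposite library (4012 against 14.1 and 12.6). Their part in the level of Cenpf, Bub1 and Ccnb2 there was not tested. Ccnd1, the cyclin gene of G1 phase, had 4355, 1176 and 1320 (3.70-fold, 3.48 to 3.94).

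**Figure D4:**
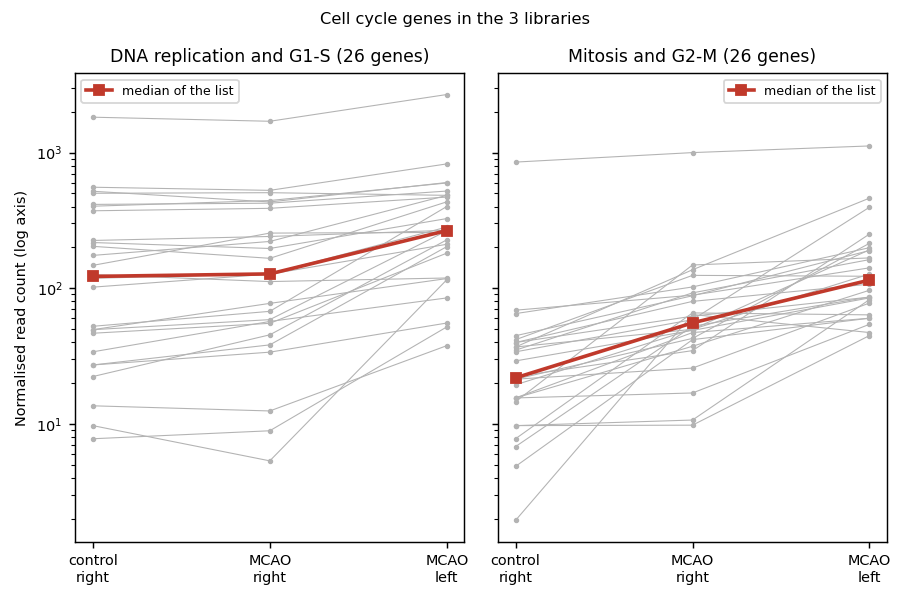
Normalised read counts (log axis) of 26 replication and 26 mitosis genes (grey lines) in the control right, MCAO right and MCAO left libraries, 1 library each, with the median of each list in red. The replication median is level between both right hemispheres (122 and 127) and higher on the left (266), while the mitosis median is at 21.8, 55.5 and 115.

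Promoters of mitosis genes commonly carry the cell cycle homology region, read here as TTTGAA on either strand, and CCAAT boxes. TTTGAA was present in 17.9% of all 32851 windows and in 18 of 23 windows of the compared mitosis genes. CCAAT was present in 37.4% of all windows and in 20 of those 23. The 23 windows covered 22 of the 26 compared mitosis genes. The stretches of 3 of the higher genes are shown for the position of TTTGAA, in capitals, 5′ to 3′ in the direction of the gene and upstream of its annotated span. They are from chr7:135716453-135716532, chr10:69352913-69352992 and chr4:118437344-118437423, all on the minus strand.
Mki67: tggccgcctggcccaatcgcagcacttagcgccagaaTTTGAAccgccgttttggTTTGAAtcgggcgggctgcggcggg
Cdk1: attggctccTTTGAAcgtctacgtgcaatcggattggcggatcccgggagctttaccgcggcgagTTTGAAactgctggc
Cdc20: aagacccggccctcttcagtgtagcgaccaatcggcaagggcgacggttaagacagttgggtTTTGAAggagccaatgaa
Mki67 and Cdk1 each had 2 matches in the stretch and Cdc20 had 1. Cdc20, an activator gene of the anaphase-promoting complex, had 192, 49.7 and 36.8 normalised read counts (3.86-fold, 2.83 to 5.33). TTTGAA was also found for members that were level between the sides, Cenpf and Ccnb2 among them. For the 12 compared pan-reactive genes the STAT motif TTCNNNGAA was found in 1 of 13 windows (Gfap), beside 8.30% of all windows. The pan-reactive gene Steap4, under the minimum mean and so not counted, also had a match, 116 bases before its start. For the A2 list it was found in 4 of 13 windows (Emp1, Sphk1 and Tgm1). Those 13 windows covered 7 of the 11 compared A2 genes.

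Part of the striatal neuron genes passed 2-fold downward in the left library. Of 23 shared striatal genes 8 were lower, beside 1.73% of all genes compared. All 23 lay below 0, with a median of -0.73, beside 0.01 over all genes. Of 7 indirect pathway genes 5 were lower (median -1.10), and of 8 direct pathway genes 2 were lower (median -0.34). Adora2a, an adenosine receptor gene of indirect pathway neurons, had 389, 1694 and 2140 normalised read counts, 4.35-fold less on the left than on the opposite side (3.87 to 4.90). Drd2, the D2 dopamine receptor gene of the same neurons, had 185, 761 and 951, 4.12-fold less on the left (3.47 to 4.92). Drd1, the D1 receptor gene of direct pathway neurons, had 487, 1090 and 1444 (2.24-fold lower, 2.00 to 2.51). The interval of Drd1 did not overlap those of Adora2a and Drd2, with counting error alone considered. This did not hold for all indirect pathway genes. Gpr6 was 2.74-fold lower, but Penk, encoding enkephalin, was 2.14-fold lower (2.05 to 2.23), within the interval of Drd1. Sp9, another indirect pathway gene, had 167, 157 and 261, a ratio of 1.06 between the sides (0.847 to 1.33). Sp9 and the direct pathway gene Sfxn1, at 3207, 2774 and 2694, lay above 0.

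Among the shared striatal genes, Lrrc10b had 487, 1589 and 1607 normalised read counts (3.26-fold lower, 2.93 to 3.64). Pde10a, a phosphodiesterase gene of medium spiny neurons (chromosome 17, 8525187 to 8986648), had 1806, 5404 and 6378 (2.99-fold lower, 2.83 to 3.17). Scn4b, a sodium channel subunit gene, had 2894, 7333 and 9865 (2.53-fold lower, 2.42 to 2.65). The right hemispheres were nearer to each other than to the left library in each of these genes, and the left library was low. Of 5982 named genes with at least 1000 normalised read counts in the opposite library, 14 were lower in the left library and 23 higher. Over all genes compared, 1.73% were lower and 3.29% higher. The minimum was set on the opposite library alone, so genes abundant only in the left library were not counted. The list median of the shared striatal genes was -0.97 for the left library against the control and -0.17 for the opposite library against the control.

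Neuronal genes of other regions were nearly level between the sides. None of 21 cortical layer, 19 thalamic and diencephalic, 13 hippocampal or 17 interneuron genes was higher or lower, with medians of 0.01, -0.01, 0.14 and -0.10. Tbr1, a transcription factor gene of deep-layer cortical neurons, had 2011, 1573 and 2514 normalised read counts, and Slc17a7, the vesicular glutamate transporter gene of cortical neurons, had 33556, 28415 and 41540. In both the opposite library was lowest and the control highest. Against the control the cortical median was -0.25 in the left library and -0.28 in the opposite library, so both MCAO sides lay below the control by like amounts. The 33 channel genes showed the same arrangement, with -0.06 between the sides and -0.41 and -0.33 against the control, and Scn4b was the 1 lower member. Medians between the sides were 0.02 for 19 general neuron genes, -0.07 for 21 synaptic release genes and -0.02 for 28 glutamate and GABA receptor genes. The 1 called gene in these 3 lists was Meg3, a long noncoding RNA gene, with 10251, 4220 and 11682 (2.43-fold higher, 2.34 to 2.52), where the opposite library alone was low.

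**Figure D5:**
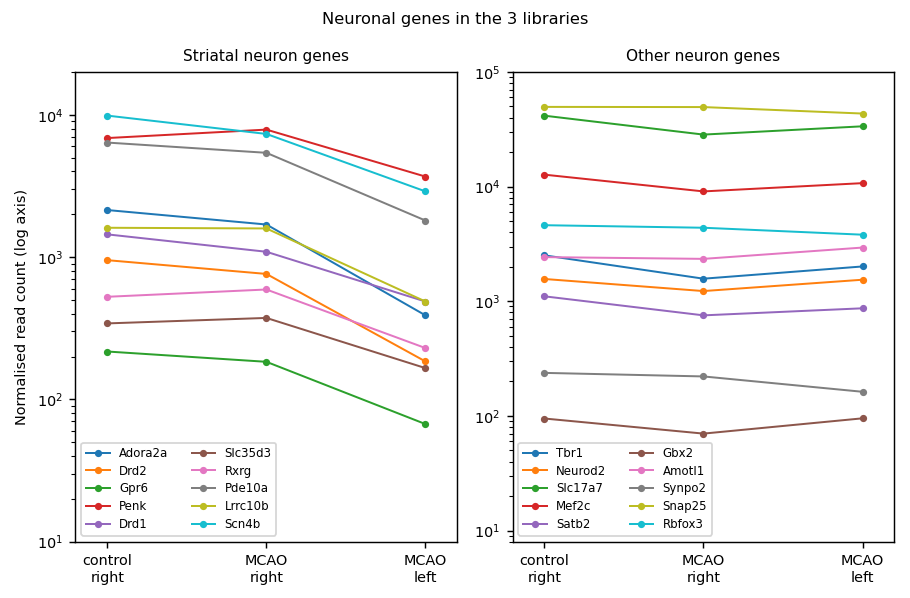
Normalised read counts (log axis) of striatal neuron genes (left panel) and other neuron genes (right panel) in the control right, MCAO right and MCAO left libraries, 1 library each. The striatal genes drawn are a selection. Every striatal line shown is lowest on the left side, such as Adora2a at 389 against 1694 and 2140. Sp9 and Sfxn1, which were slightly higher on the left than in the MCAO right library, are not drawn. Tbr1 and Slc17a7 are lowest in the MCAO right library.

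Few members of the lists for other cell types passed 2-fold. Over all genes compared, 3.29% were higher. Of 16 myelin genes 15 lay above 0 and 1 was higher (6.25%), with a median of 0.30. It was Trf, encoding the iron carrier transferrin, at 25179, 9189 and 7713 normalised read counts (2.74-fold, 2.68 to 2.81). Of 15 oligodendrocyte precursor genes 13 lay above 0 and Cspg4 alone was higher (6.67%, median 0.27). Of 19 endothelial genes 15 lay above 0 and 2 were higher (10.5%, median 0.21). Those 2 were Vwf, encoding von Willebrand factor, with 305, 136 and 176 (2.24-fold, 1.83 to 2.76), and the angiopoietin receptor gene Tek, with 75.3, 33.7 and 70.7 (2.23-fold, 1.47 to 3.43). For Tek the left library was level with the control and the opposite library was low. Of 17 mural and fibroblast genes 10 lay above 0 and Cspg4 alone was higher (5.88%, median 0.10). The 11 ependymal and choroid genes had a median of -0.42 with none called. Ttr, the transthyretin gene of the choroid plexus, had 8192, 14272 and 10949 (1.74-fold lower, 1.69 to 1.79).

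Some genes differed between the sides with the opposite library apart from both others. Left-high genes of this kind, with the left library within 1.4-fold of the control on the log2(value + 5) scale (a difference under 0.496), included Map3k6 at 78.8, 29.3 and 58.1 normalised read counts, Hjurp at 139, 54.1 and 129, and the serotonin synthesis gene Tph2 at 43.5, 16.9 and 30.0. Figf, Acot10, Slc2a9 and Ceacam1 had the same order. In all, 19 of the 474 higher genes had the left library within 1.4-fold of the control, and 112 of the 249 lower genes did. Ccna1, a cyclin gene of meiotic cells, had 10.6, 62.1 and 16.5, and the dynein gene Dnah10 had 19.997, 100 and 27.1. Pifo, Art3, Zpbp, Ccdc27, Rasl2-9 and Mns1 were of the same kind. Each lay under the 4-fold limit at which genes were set apart, and the part of the germ cell transcripts in them was not tested. Genes low in both MCAO libraries with the sides alike were Doc2g, with 51.8, 43.5 and 207, Prss56, Plag1, Adamts6, Sema3g and Prss50.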

How the data were processed

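The deposited table gives a signal per gene and library, which the authors made by scaling read counts per library, and values below 1 were listed as 1. Tools named per the submitters' processing notes are DESeq2, R 3.3.1, Partek 6.6, HISAT2 2.0.11 and CASAVA 1.8, on mm10, with no role stated. Strandedness is not given in the sources used here, and overlapping genes may share reads. Each column was tied to its library by the sample description, and 0 columns were unused. Whole reads were recovered from the value of 1 read in each column (1.18 in the left, 0.887 in the opposite and 0.969 in the control library), and 99.9% of values were whole within 0.1 read. A value listed at 1 was taken as 0 reads in the left library and as 1 read in the others.

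Differences are log2(value + 5). Genes under a mean of 20, and genes with the opposite library at least 4 times both others, were left out. The comparison, the 61 gene lists and the named-gene rule were chosen with earlier results of these data known. The rule named the 20 highest and 12 lowest genes, up to 5 members with the largest difference per list, cell type markers, and 8 genes per pattern. Cp, Anxa1, Sparcl1, Sp9, Sfxn1, Prc1, Anln and Isg15 were named after their values were seen, and some genes that the rule names are not reported here. Several lists share members. Motifs were searched in RefSeq promoter windows from 250 bases before to 50 after a gene start. RefSeq held 15912 of the 16610 symbols. The procedure was tested on simulated data. Python 3.11.15, pandas 2.3.3, scipy 1.17.1 and edgeR 4.0.16 (normalisation factors only) were used. Alternatives covered pseudocount, filters, scaling and the set-apart limit.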

Additional observations from a re-analysis of the deposited data

How the results depend on the processing

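No paired analysis was possible because each side had 1 pooled library, and no replicate could be left out. The count of 474 higher genes moved by over 1.5 times under 1 setting, to 296 when the whole counting interval had to lie beyond 2-fold. The 249 lower genes became 139 at a minimum mean of 50, 391 with no filter and 740 with the 491 genes set apart kept in. They became 113 with a set-apart limit of 2 times and 105 by the counting interval. Against both right hemispheres, the 60 lower genes became 28 at a pseudocount of 20, 38 at a minimum mean of 50 and 96 with no filter. The 491 genes set apart became 238 at a minimum mean of 50 and 1000 with no filter. The 4 other scalings shifted all genes by at most 0.04 on the log2 scale. No gene or list past 2-fold changed direction under these settings (59 values of 6 lists and 354 of 36 genes). For single genes this could not come out otherwise. Pseudocounts and filters cannot change the sign of a gene's difference, and the scalings shifted it by at most 0.04. With the control in place of the opposite library, an alternative chosen after seeing the data, 601 genes were higher (4.17%) and 170 lower (1.18%), and 28 of those 36 genes were still past 2-fold. The 20 highest genes all stayed past it. Most of the 12 lowest did not, namely Slc2a5, Cep85l, Slc16a7, Erich6, Cast, Bbof1 and Stk33. Reads recovered per gene limit precision, and variation between animals could not be measured.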

Other observations

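Several gene groups outside the comparisons above had 1 to 6 members at least 2-fold higher in the left than in the opposite library of the MCAO animals, beside 3.29% of all genes compared. In the 29 cholesterol synthesis and transport genes the median was 0.00 between the sides and -0.41 and -0.32 for the left and opposite libraries against the control, and Ch25h was the 1 higher gene. Of 18 metallothionein, iron and heme genes 3 were higher (median 0.42), namely Lcn2, Trf and Hmox1, the last encoding heme oxygenase 1, with 693, 331 and 220 normalised read counts in the left, opposite and control libraries. Of 25 TGF-beta and BMP genes 4 were higher and 1 lower (median 0.01). The activin subunit gene Inhba had 7.06, 26.6 and 33.9. Of 26 growth factor genes 2 were higher and 1 lower (median 0.09), with the binding protein gene Igfbp3 at 2123, 410 and 321 and the neurotrophic factor gene Gdnf at 11.8, 30.2 and 38.7. Of 25 p53 target and apoptosis genes 2 were higher (median 0.22), the caspase gene Casp8 at 158, 41.7 and 38.7 and the death receptor gene Fas at 118, 38.2 and 39.7. Of 21 prostaglandin, leukotriene and sphingosine genes 6 were higher (median 0.21).

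The 28 ribosomal protein genes were all within 2-fold, and 27 of them lay above 0 between the sides. Their median was 0.19, beside 0.01 over all genes. Against the control the median of the ribosomal protein genes was 0.42 in the left library and 0.22 in the opposite library. Of 19 neural progenitor genes 2 were higher, Nes and the lipid-binding protein gene Fabp7 (7013, 3357 and 2547), and the median was -0.06 between the sides. Both MCAO libraries lay above the control in this list, with medians of 0.44 and 0.47. Medians were 0.11 for 25 glycolysis and hypoxia genes, 0.04 for 26 oxidative phosphorylation genes, 0.14 for 23 NRF2 and glutathione genes, 0.08 for 23 lipid genes, -0.11 for 27 Notch, Wnt and Shh genes and 0.07 for 32 axon guidance genes. Of 20 immediate early genes 1 was higher (median -0.03), the stress factor gene Atf3 at 126, 15.1 and 29.1. The Y-linked genes Ddx3y, Eif2s3y, Kdm5d and Uty were present in all 3 libraries, between 201 and 1775 normalised read counts. Of 11 G1 cyclin and inhibitor genes 2 were higher (median 0.33), of 16 chaperone genes 1 (0.16), of 23 ER stress genes 1 (0.10), and of 14 synapse regulators from astrocytes 2 (-0.11). Of 18 purine receptor and ectonucleotidase genes 1 was higher and 1 lower (0.11), and the 6 red cell and plasma genes had a median of -0.07. Of 20 male germ cell genes 17 were set apart for being high in the opposite library. The 2 compared, Odf2 and Hspa1l, were both lower in the left than in the opposite library. Their median against the control was -0.02 in the left library and 1.42 in the opposite library. Over all 61 lists, 43 medians lay above 0.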
